A study of Mus musculus with 12 samples.

Results

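FLAG-Zscan4 regions were examined at the mouse genes whose symbols begin with Cep or Kif followed by a digit. The Cep genes are named for centrosomal proteins and the Kif genes for the kinesin family. On chromosomes 1 to 19 of the mm10 assembly, 81 genes carried such a symbol, 41 Cep and 40 Kif, of 46714 annotated genes that were used. Kif4, on the X chromosome, falls outside. Of the 81, 75 were protein-coding, and 6 were non-coding RNA genes or pseudogenes that take the name of a neighbour or parent gene (Cep112it, Cep112os1, Cep83os, Kif16bos, Kif22-ps and Kif4-ps). These 6 do not encode centrosomal or motor proteins and entered by symbol alone. A gene counted when the centre of a listed region fell between its annotated ends or no more than 10 kb outside them. The genes were put together with their number of regions known, so that number is given as a description and without a test.

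The study made mouse J1 embryonic stem (ES) cells (strain given as 12910la) that overexpress Zscan4c, a SCAN-domain zinc finger factor of the 2-cell embryo that a small share of ES cells also transcribe. The FLAG-tagged coding sequence was carried on a pCMV plasmid (1000 ng), and cells were selected with G418 (500 ug/ml, 10 days, starting 24 h after transfection) and picked as single clones. The 12 labelled samples form 12 groups of 1. The group used here is the anti-FLAG immunoprecipitation from Zscan4 overexpression cells, and its input, the histone mark libraries of overexpressing cells and those of wild-type cells were not analysed here. There was 1 list of 4973 regions, of which 4759 lay on chromosomes 1 to 19. No sample had a replicate and depth is unknown, so intervals cover counting error only. Absence from the list does not show that a gene is free of the protein.

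The centrosome is a pair of centrioles within a protein matrix that nucleates microtubules. It duplicates once in each cell cycle, forms the poles of the mitotic spindle, and provides the basal body from which a cilium grows. Kinesins are motor proteins that use ATP to move along microtubules or to shorten them. Some build and move the spindle, some carry cargo in the cytoplasm and in axons, and some work in cilia. ES cells divide rapidly, and the genes of the spindle and of centriole assembly are active in them.

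Sequences around start sites are shown for the genes whose regions lie nearest to a start (Cep55 and Kif22) and for the spindle kinesin gene Kif11. A Cep170 start that holds letters of the Zscan4 motif is also shown. Cep162, whose nearest region is 1170 kb away, holds such letters too and is not shown. The sequences are RefSeq sequences of build GRCm38.p6, 5′ to 3′ on the strand of the gene. They hold 250 bases before and 50 after the annotated start. Capitals mark TTTGAA, the core of the cell cycle homology region (CHR) through which many mitotic genes are timed, and TGCACAC, a short motif known for Zscan4, each on either strand (TTCAAA and GTGTGCA on the other).
Cep55, chr19:38054734-38055033, plus strand: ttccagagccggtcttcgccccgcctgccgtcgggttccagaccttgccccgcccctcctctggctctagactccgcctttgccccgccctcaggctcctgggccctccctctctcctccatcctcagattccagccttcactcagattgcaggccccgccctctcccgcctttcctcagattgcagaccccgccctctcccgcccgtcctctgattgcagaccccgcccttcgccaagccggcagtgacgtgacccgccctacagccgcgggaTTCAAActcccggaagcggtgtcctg
Kif22, chr7:127042371-127042670, minus strand: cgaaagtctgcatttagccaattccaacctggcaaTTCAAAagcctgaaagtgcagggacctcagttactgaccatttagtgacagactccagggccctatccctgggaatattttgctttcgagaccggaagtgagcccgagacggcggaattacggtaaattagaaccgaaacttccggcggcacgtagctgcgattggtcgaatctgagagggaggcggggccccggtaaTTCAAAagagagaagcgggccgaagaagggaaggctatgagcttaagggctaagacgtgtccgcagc
Kif11, chr19:37376132-37376431, plus strand: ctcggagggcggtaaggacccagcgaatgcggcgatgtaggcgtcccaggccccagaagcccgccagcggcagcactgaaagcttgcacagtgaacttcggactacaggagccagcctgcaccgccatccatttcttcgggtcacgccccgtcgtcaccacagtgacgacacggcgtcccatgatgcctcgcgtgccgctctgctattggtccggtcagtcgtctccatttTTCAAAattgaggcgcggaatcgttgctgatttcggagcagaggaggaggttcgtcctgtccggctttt
Cep170, chr1:176807075-176807374, minus strand: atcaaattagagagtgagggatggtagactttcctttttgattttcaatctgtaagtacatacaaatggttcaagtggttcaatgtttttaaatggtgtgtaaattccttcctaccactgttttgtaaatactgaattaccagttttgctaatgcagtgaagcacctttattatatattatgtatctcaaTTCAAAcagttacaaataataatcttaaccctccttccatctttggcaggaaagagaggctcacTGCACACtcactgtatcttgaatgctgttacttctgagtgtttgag

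Of the 81 genes, 22 had a region in the body or within 10 kb (27.2%, 95% Wilson interval 18.7 to 37.7%), against 12.2% of the 20560 protein-coding genes on the same chromosomes and 9.23% of all genes. Cep genes gave 12 of 41 (29.3%) and Kif genes 10 of 40 (25%). Long genes meet more regions, and the Cep and Kif genes were long, with a median span of 42.0 kb against 17.6 kb for all protein-coding genes. Weighted to the spans of the 81, other protein-coding genes gave 16.9%, which corresponds to 13.7 genes. The 75 protein-coding genes alone gave 21 (28%), against 17.8% at like span. The intervals treat genes as independent and make no allowance for how the list was chosen.

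The share was larger in classes of longer span in both sets. Genes over 100 kb had a region in 6 of 14 Cep and Kif genes (42.9%), against 34.1% of protein-coding genes of that class. Between 50 and 100 kb it was 6 of 21 (28.6%) against 20.6%. Between 20 and 50 kb it was 7 of 28 (25%) against 12.9%. Under 20 kb it was 3 of 18 (16.7%) against 5.5%. The Cep and Kif share was above that of protein-coding genes in each of the 4 classes. Its 95% Wilson interval was 21.4 to 67.4% over 100 kb, 13.8 to 50% between 50 and 100 kb, and 12.7 to 43.4% between 20 and 50 kb. Each of these holds the protein-coding share of its class. Under 20 kb the interval was 5.84 to 39.2%, just above 5.5%. The classes divide the same chosen genes and are not separate support. The class under 20 kb holds the 6 non-coding genes and pseudogenes, and without them it gave 2 of 12 (Cep55 and Kif22, 95% Wilson interval 4.7 to 44.8%).

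**Figure D1:**
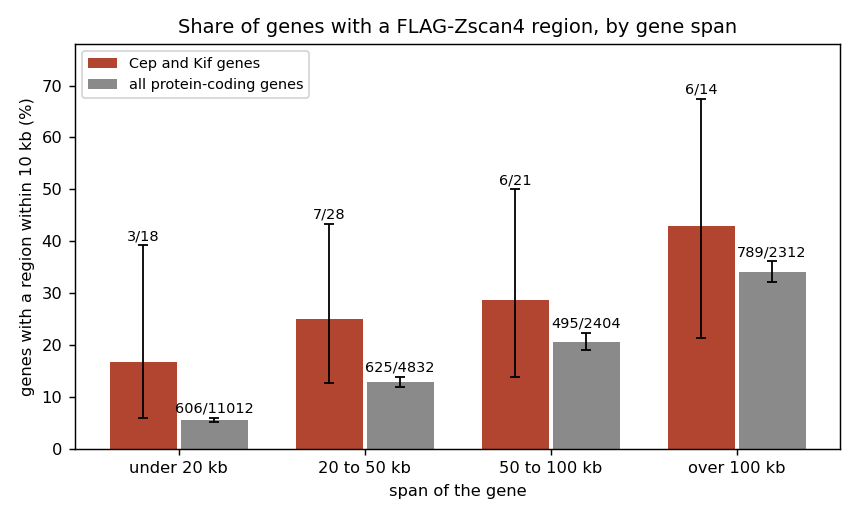
Share of genes with a FLAG-Zscan4 region within 10 kb (y axis, percent) by span of the gene (x axis), for Cep and Kif genes (red) and all protein-coding genes (grey) on chromosomes 1 to 19. Whiskers are 95% Wilson intervals and the fractions give genes with a region over genes in the class. The red bars stand at 16.7, 25, 28.6 and 42.9%, above the grey bars at 5.5, 12.9, 20.6 and 34.1%, with wide intervals.

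The 27 regions at the 22 genes were all different. One region was found at 17 genes and 2 regions at 5 genes, namely Cep128, Cep250, Kif13b, Kif26b and Kif27. The windows of the 81 genes cover 7.21 Mb and held 3.74 regions per Mb (95% exact Poisson interval 2.47 to 5.45), against 2.22 per Mb (2.14 to 2.31) in the windows of other protein-coding genes and 1.98 per Mb over chromosomes 1 to 19. At the rates of their own chromosomes the windows would hold 14.2 regions (ratio 1.9). Windows of other protein-coding genes also held more than their chromosomes' rates would give, with 2699 regions against 2400 (ratio 1.12). The 22 genes lay on 12 of the 18 chromosomes that carry a Cep or Kif gene. Chromosome 4 had the most, with 4 of 7 genes, among them Cep85, Kif1b and Kif24. Chromosome 9 carries 10 of the genes and had a region at 1, Cep70. On chromosome 18, none of 5 had one, and chromosome 8, which has the most regions per Mb of any autosome (3.65), carries only Cep44, with its nearest region 900 kb away.

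Start-site windows were held for 64 of the 81 genes, with 75 windows in all, and no listed region overlapped any of these windows. Overlap with the windows of other protein-coding genes was not counted. Of the regions at those genes, only 2.11% lay within 1 kb of a start site. The absence at Cep and Kif windows therefore cannot be called unusual. TGCACAC was found at 2 of 64 genes (3.12%, Cep162 and Cep170), against 4.55% of 16457 protein-coding genes with such a window. TTTGAA was found at 20 of 64 genes (31.2%), against 17.8%. Among the kinesins of the spindle and cytokinesis it was found at 8 of 11 (Kif11, Kif14, Kif15, Kif18b, Kif20b, Kif22, Kif23 and Kif2c). By whether the gene had a region within 10 kb, TTTGAA was at 8 of 18 genes with one and at 12 of 46 without. These letters are matches in a window, not shown sites. The windows of Cep and Kif genes held a median of 25 CG dinucleotides in 300 bases, against 14 for protein-coding genes. The Cep55, Kif22 and Kif11 windows hold 22, 19 and 28, and the inner Cep170 start holds 0.

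The score is the authors' own, its scale is not stated, and it was used for ranking alone. The 27 regions at Cep and Kif genes had a median score of 29 (interquartile range 19 to 38.5, full range 10 to 156), against 31 (21 to 50) for the 2699 regions at other protein-coding genes. Regions at Cep genes had a median of 35.5 and reached 156. Regions at Kif genes had a median of 29 and none was above 35. Scores of at least 33, the median of the whole list, were held by 7 of 14 regions at Cep genes and 4 of 13 at Kif genes, against 47.5% at other protein-coding genes. Scores of at least 55, the upper quartile, were held by 3 of 27 regions (11.1%), all at Cep genes (Cep70, Cep290 and Cep170). The share was 21.5% for regions at other protein-coding genes and 24.3% for all regions on chromosomes 1 to 19.

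**Figure D2:**
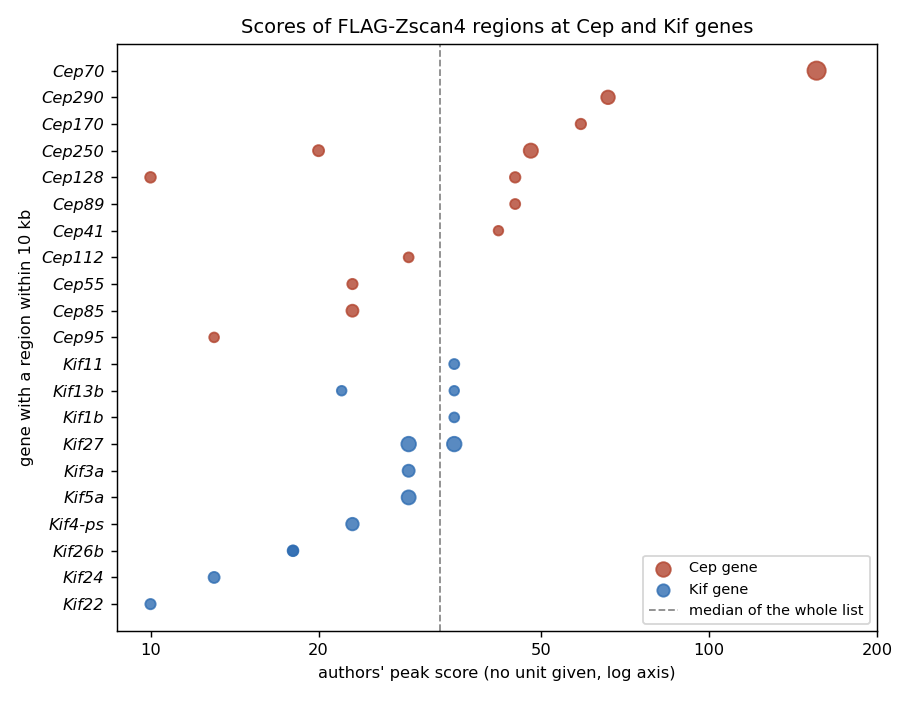
Authors' peak score (x axis, log scale, no unit given) of 26 regions at 21 Cep and Kif genes (y axis), with Cep genes in red and Kif genes in blue. Dot area grows with the width of the region, the dashed line is the median of the whole list (33), and the regions of Kif26b coincide at 18. Cep scores run from 10 to 156 and Kif scores from 10 to 35.

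When only the regions with a score of at least 33 counted, 11 of the 81 genes had one (13.6%), against 6.34% of protein-coding genes and 8.84% at like span. They were Cep41, Cep70, Cep89, Cep128, Cep170, Cep250 and Cep290 with Kif11, Kif13b, Kif1b and Kif27. With a score of at least 55 it was 3 of 81 (3.7%), against 2.97% of protein-coding genes and 4.16% at like span. The share was above that at like span in the whole list and at 33 or more, and it was not above it at 55 or more. The 11 and the 3 genes are among the 22 of the whole list, so their shares are not separate support. No interval was taken for them.

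Among the Cep genes of the mother centriole's appendages, which anchor microtubules or dock the centriole to the membrane, 3 of 5 had a region, against 1.22 expected at like span (95% Wilson interval of the share 23.1 to 88.2%, like-span share 24.4%). Cep170, a subdistal appendage protein, had a region 4.46 kb beyond its 3′ end (chromosome 1, 176724470 to 176724751, score 59), a score above that of 78.3% of the list. Cep128, another subdistal appendage protein encoded over 386 kb, had a pair in its body, one of score 45 (chromosome 12, 91293224 to 91293511) and one of score 10 (91331286 to 91331586). These stood at opposite sides of the list's median. Cep89, a distal appendage protein, had a region 7.83 kb beyond its 3′ end (chromosome 7, 35447538 to 35447788, score 45) that lay inside the long non-coding RNA gene Gm42378. Cep164 and Cep83, which are also distal appendage proteins, had none, with nearest regions at 164 and 143 kb.

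Of the linker that holds the centrosomes together, Cep250 (C-Nap1) had a region 4.56 kb upstream of its body (chromosome 2, 155951412 to 155952038, score 48) and one inside it (155968037 to 155968372, score 20). The upstream region was the stronger by score and the wider, at 627 bp against 336 bp. Its partner Cep68 had none within 61.6 kb.

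Of 11 genes of centriole assembly, 1 had a region. It was Cep85, which works with the assembly factor STIL, with a region of score 23 at 84.1% of the way along the body from the 5′ end (chromosome 4, 134138771 to 134139183). The factors that recruit the kinase Plk4, Cep152 and Cep192, had their nearest regions at 250 and 142 kb. Cep63, the partner of Cep152, had its nearest at 48.7 kb, and Cep135, a protein of the cartwheel and centriole wall, at 411 kb. At the span of these 11 genes, other protein-coding genes would give 1.65.

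Among 11 Cep genes with a role in cilia, 3 had a region, all in the body, against 1.79 expected at like span (95% Wilson interval of the share 9.75 to 56.6%, like-span share 16.2%). Cep290, a protein of the ciliary transition zone that is mutated in human ciliopathies, held a region of 560 bp at 32.7 kb from its start site (chromosome 10, 100520039 to 100520598). Its score of 66 was above that of 80.5% of the list. Cep41, needed for the glutamylation of ciliary tubulin, held one of score 42 and 219 bp (chromosome 6, 30683834 to 30684052), which also lay inside the long non-coding RNA gene Gm13782. Cep350 and Cep78 were among the 8 without one within 10 kb.

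The highest and widest of the 27 regions was at Cep70, which encodes a protein that binds gamma-tubulin. It spanned 1114 bp (chromosome 9, 99313506 to 99314619) and its score of 156 was above that of 94.4% of the list. It lay 11.8 kb inside the end of the annotated Cep70 body and also inside Esyt3, which encodes an extended synaptotagmin, so it cannot be given to either gene. Cep55, which recruits the abscission machinery to the midbody, held a region of score 23 at 2.15 kb inside its start site (chromosome 19, 38057060 to 38057333). Cep112, the longest of the genes at 435 kb, had a region 2.96 kb beyond its 3′ end and none in the body (chromosome 11, 108863457 to 108863698, score 29). At Cep95 the region (chromosome 11, 106827971 to 106828201, score 13) was 9.22 kb beyond the 3′ end, inside the ubiquitin ligase gene Smurf2.

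Of 12 kinesins of the spindle and of cytokinesis, 2 had a region, against 1.63 expected at like span. Kif11 (Eg5), the motor that slides spindle poles apart, held one near the middle of its body, 21.2 kb from its start site (chromosome 19, 37397450 to 37397703, score 35). Kif22 (Kid), which pushes chromosome arms from the poles, had one 2.14 kb upstream of its body (chromosome 7, 127044473 to 127044744). Its score of 10 is the lowest in the list. The other spindle kinesins were farther from a region: Kif14 at 24.5 kb, the microtubule depolymerase Kif2c at 59.6 kb, Kif20a at 83.3 kb, and the midzone motor Kif23 at 216 kb.

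Among 9 kinesins with a role in cilia, 3 had a region, against 1.45 expected at like span (95% Wilson interval of the share 12.1 to 64.6%, like-span share 16.1%). Kif27, whose product acts in motile cilia, held a close pair of wide regions, of score 35 (chromosome 13, 58346505 to 58347166) and 29 (58347787 to 58348451), the only regions at these genes with a neighbour within 10 kb. Kif27 was also the gene with the most regions around it, with 11 in the surrounding 1 Mb against a median of 3 for the 27 regions and 4 for all regions on chromosomes 1 to 19. Kif24, which restrains ciliogenesis, held one of score 13 at 9.86 kb from its start site (chromosome 4, 41454821 to 41455151). Kif3a, a subunit of the heterotrimeric kinesin-2 of intraflagellar transport, had one of score 29 at 8.86 kb beyond its 3′ end, inside the cytokine gene Il4 (chromosome 11, 53612901 to 53613321). Its partner subunit Kif3b had its nearest region at 445 kb, and Kif7, the kinesin of Hedgehog signalling, at 42.4 kb.

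Among 12 kinesins of cargo transport, 3 had a region, against 2.89 at like span. Kif13b held one of score 35 in its body (chromosome 14, 64688826 to 64689047) and had another of score 22 at 1.17 kb outside the body, at its lower coordinate (64651210 to 64651434). Kif1b, a motor of mitochondria and synaptic vesicle precursors, held one of score 35 at 89.1% of the way along its body (chromosome 4, 149190501 to 149190739). Kif5a, a neuronal heavy chain of kinesin-1, held one of 611 bp and score 29 (chromosome 10, 127251856 to 127252466). Some related motors had none within 10 kb. Kif13a had its nearest region at 16.2 kb, Kif1a at 27.1 kb and Kif1c at 30.8 kb. The other kinesin-1 heavy chains Kif5b and Kif5c had theirs at 35.2 and 147 kb. At like span 24.1% of other protein-coding genes had a region within 10 kb, so most genes of such spans lack one.

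Of the remaining Kif genes, Kif26b, an atypical kinesin of 404 kb, held 2 regions of score 18 in its 5′ part, at 20.7 and 55.5 kb from its start site (chromosome 1, 178549639 to 178549947 and 178584547 to 178584800). Its paralogue Kif26a had none within 366 kb. The pseudogene Kif4-ps had one of score 23 at 2.31 kb (chromosome 12, 101143075 to 101143534), and it was the only one of the 6 non-coding genes or pseudogenes with a region.

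**Figure D3:**
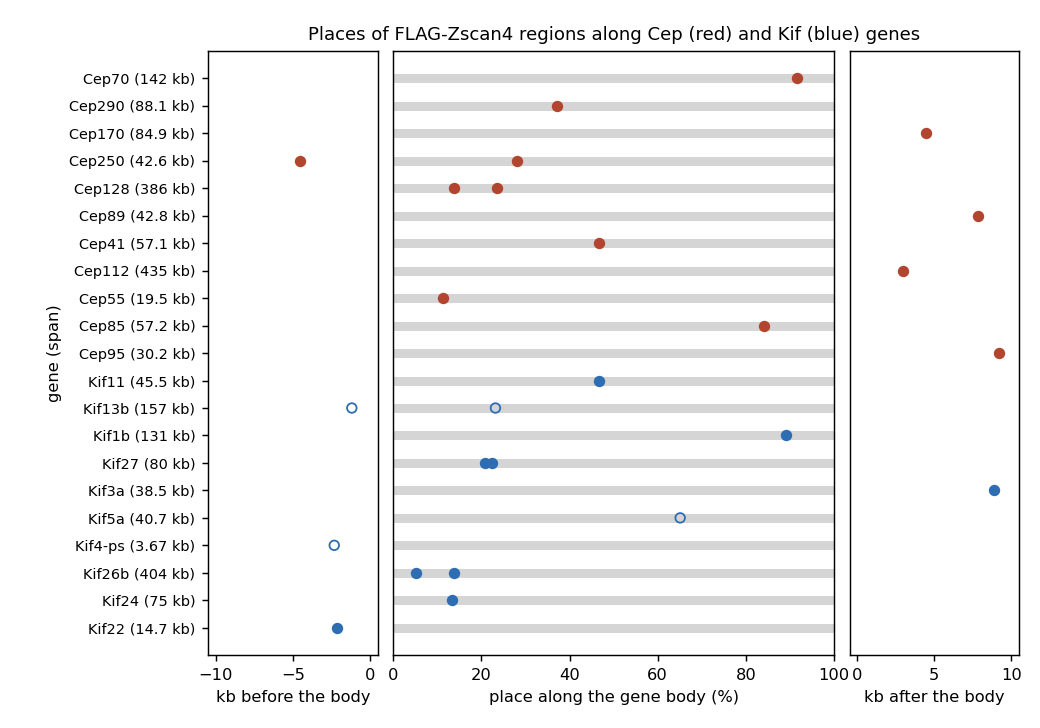
Place of 26 regions at 21 genes, with gene spans in brackets, in kb before the body (left), as percent of the body (middle) and in kb after the body (right). Filled dots are oriented from the 5′ end, and open dots (Kif13b, Kif4-ps and Kif5a), whose orientation was not used, from the lower coordinate. Of the 15 filled dots in bodies, 12 lie below 50%.

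The regions lay in bodies in 18 of 27 cases (66.7%, 95% Wilson interval 47.8 to 81.4%), against 74.9% at other protein-coding genes. Where orientation was known, 15 regions lay in a body, 2 upstream and 5 downstream. Of these 15, 12 were nearer to the 5′ end than to the 3′ end (80%, 95% Wilson interval 54.8 to 93%), against 49.7% of 1593 at other protein-coding genes (47.3 to 52.2%). The 12 came from 9 genes, since Cep128, Kif26b and Kif27 gave 2 each, and the other 3 were at Cep70, Cep85 and Kif1b. This feature was noticed among regions whose genes were already chosen and was not tested. Of the 22 oriented regions, 2 (9.09%) lay within 3 kb of an annotated start site, at Cep55 and Kif22, against 7.1% at other protein-coding genes. None lay within 1 kb, against 2.11%, a share at which 22 regions cannot show a difference. In 6 cases another gene also held the region, a protein-coding gene in 3 (Esyt3, Smurf2 and Il4) and a long non-coding RNA gene in 3. The same share at other protein-coding genes is not given, so 6 of 27 cannot be called many or few.

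The regions were of ordinary width, with a median of 301 bp (219 to 1114 bp) against 294 bp at other protein-coding genes. A width above 500 bp was seen in 6 of 27 (22.2%), against 18.2%. A neighbour within 10 kb was seen for 2 of 27 (7.41%), against 14.1%.

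Genes just inside the distance limit were Cep89 at 7.83 kb, Kif3a at 8.86 kb and Cep95 at 9.22 kb. Just outside were Cep350, a large protein of centrosomes, at 13.5 kb (score 51), Cep78 at 15.9 kb (18), Kif13a at 16.2 kb (23), Cep76 at 16.7 kb (77) and Kif28 at 17.8 kb (42). With the body alone, 15 of 81 genes had a region (18.5%), against 8.01% of protein-coding genes and 12.5% at like span. With 50 kb on either side 40 had one (49.4%), against 27.4% and 31.8%. Over all 81 genes the median distance to the nearest region was 59.6 kb, against 137 kb for other protein-coding genes, whose spans are shorter. The farthest were Kif2b at 1540 kb, Cep162 at 1170 kb and Kif6 at 1050 kb.

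**Figure D4:**
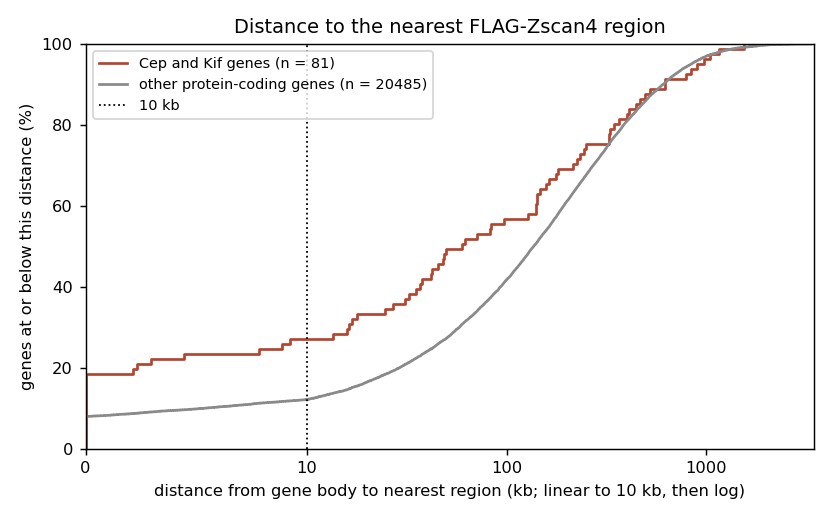
Cumulative share of genes (y axis, percent) by distance from the gene body to the nearest region midpoint (x axis, kb, linear to 10 kb and logarithmic beyond), for the 81 Cep and Kif genes (red) and 20485 other protein-coding genes (grey). The red line lies above the grey line at 10 kb (27.2%) and at 50 kb (49.4%). The upper quartile of distance is 250 kb for the red line and 323 kb for the grey line, and the lines draw together beyond that. Spans are not matched.

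Other genes of the same structures, named without these symbols, were counted from 4 lists. Of 113 genes, 21 had a region within 10 kb (18.6%, 95% Wilson interval 12.5 to 26.7%), against 15.1% at like span. That interval holds the like-span share, and it also overlaps the interval of the Cep and Kif genes. Dynein and dynactin gave 7 of 29 (24.1%, 95% Wilson interval 12.2 to 42.1%, against 13.6% at like span), among them Dynlrb1, a dynein light chain gene (highest score 239), Hook3, a dynein adaptor gene (2 regions, 147), and the heavy chain genes Dync1h1 (42) and Dync2h1 (66). Actr10 (35), Dctn6 and Dync1i1 (10 each) completed that group, whose interval holds its like-span share too. The gamma-tubulin, augmin and spindle list gave 7 of 39 (17.9%, against 13.7% at like span), with the spindle pole gene Numa1 (322), the augmin gene Haus1 (125), Nusap1 (80), Tacc1 (45), Clasp1 (3 regions, 31), Mapre2 (23) and Tpx2 (13). Other centrosome and centriole genes gave 6 of 33 (18.2%, against 18.5% at like span), namely Sfi1 (4 regions, 273), the scaffold gene Akap9 (2 regions, 249), Ninl (42), Rttn (37), the cilium kinase gene Ttbk2 (29) and Cdk5rap2 (23). Kinesins and partners named otherwise gave 1 of 12 (8.33%, against 14% at like span), the minus-end motor gene Kifc1 (40). Pcnt, Pcm1, Plk4, Stil and Sass6 had none. A score of 200 or more was reached at Numa1, Sfi1, Akap9 and Dynlrb1, above any at the Cep and Kif genes. Sfi1 (chromosome 11, from 3131850) and Akap9 (chromosome 5, from 3927736) lie close to the 3 Mb limit below which genes were left out. Input signal there was not examined, so these scores are given with that limit.

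Another pair of gene families chosen by symbol from the same list gave similar counts. Of 86 Usp and Klhl genes, which encode deubiquitinases and substrate adaptors of ubiquitin ligases, 24 had a region (27.9%, 95% Wilson interval 19.5 to 38.2%), against 15.9% at like span. That interval overlaps most of the one for Cep and Kif genes, and no test of a difference was made. The Usp and Klhl genes were also chosen with earlier results of these data known, so their share is not separate support.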

How the data were processed

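The measurement analysed was 1 list of regions from the anti-FLAG immunoprecipitation. Build mm10 and the tools Bowtie2, cutadapt, deepTools and MACS2 stand in the submitters' processing notes, with no version, order or threshold given. Each region carries a whole-number score that the authors deposited. Region starts and ends were deposited by the authors in bp and are printed counted from 1. Region names run to 5005, and 32 numbers had no region in the list used here. Depth is unknown.

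Genes came from a RefSeq table of GRCm38.p6, whose chromosomes are those of mm10, without genes starting below 3 Mb. Strand and start sites came from the RefSeq start-site windows (64 of 81 genes matched by gene ID). Exons and sequences of the regions were not used here. Shares at like span are those of other protein-coding genes in 4 span classes (limits 20, 50 and 100 kb), weighted by the genes' numbers. Intervals are 95% Wilson or exact Poisson intervals. Nothing was tested for significance. Counting was tested on simulated data. Python 3.11.15, pandas 2.3.3 and scipy 1.17.1 were used.

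The genes, lists and classes were chosen with earlier results of these data known. Cep and Kif genes with a region were named, except 1 that entered the counts and is not reported here, with the nearest ones outside 10 kb and well-known genes without one. Listed pathway genes with a region were named. One listed symbol, Fgfr1op, is an older name of Cep43 and was left out of its list.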

Additional observations from a re-analysis of the deposited data

How the results depend on the processing

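The counts depended on which regions and which distance were used. With scores of at least 33 they were 11 genes with a region, 7 Cep and 4 Kif, with 11 regions and 8.84% at like span. With scores of at least 55 they were 3 genes, 3 Cep and 0 Kif, with 3 regions and 4.16% at like span. With 50 kb on either side they were 40 genes, 20 Cep and 20 Kif, with 51 regions and 31.8% at like span. These settings change how many regions are counted or how wide the windows are. With the body alone the share at like span was 12.5%, and 15 genes with 18 regions stayed within 1.5 times the main count. With all genes as comparison the share at like span was 16.1%, and with finer classes of span it was 17.2%. Merging regions within 1 kb joined the pair at Kif27 and gave 26 regions at the same 22 genes, and overlap of 1 bp in place of the midpoint gave the same 22 genes. Without the non-coding genes and pseudogenes, 21 of 75 genes had a region.

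No paired analysis was possible because each group holds 1 sample, and no group has a replicate to leave out. The list comes from 1 immunoprecipitation of a clonal line. It gives no reads, so neither depth nor input signal at these genes was examined, and copy number of the clone was not measured. Most Kif regions rank in the lower part of the list. Counts per role are too small to rank one role against another.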
